A study of Mus musculus with 8 samples.

Results

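The nuclear-encoded subunits of the mitochondrial respiratory chain and ATP synthase were examined in a retinal messenger RNA series from mice. Genes were taken by symbol from the deposited count table: the Nduf families of complex I, the Sdh genes of complex II, the Uqcr genes and Cyc1 of complex III, the Cox4 to Cox8 genes whose number is followed by a, b or c for complex IV, and the Atp5 genes of complex V. Symbols of pseudogenes and Ndufa4l2 were left out. The rule found 78 of 16109 genes, with 36 in complex I, 4 in complex II, 9 in complex III, 12 in complex IV and 17 in complex V. It does not reach Cox4i1, Cox4i2 or Ndufab1, which are given further on. By symbol it also takes Atp5s and Atp5sl, which are not ATP synthase subunits, Cox7a2l, a factor that joins complexes III and IV, and Ndufa4, now placed in complex IV. Without Atp5s, Atp5sl and Cox7a2l the median difference reported below was 0.00 over 75 genes, and no count of calls changed.

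Retinas came from C57BL/6 mice at postnatal day 5, and the libraries carry the genotype label wild type (WT, 4 libraries) or C3 KO (4 libraries). C3 is the central complement protein. Hyaloid vessels had been removed and poly(A) RNA selected, per the labels' protocols, and no treatment is named for either label. How many animals went into a library is not stated by any source used here, and p-values measure only the spread between these libraries. Total counts ran from 16503564 to 19608824 reads.

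Several facts of the whole series bear on every direction below. C3 itself stood at 1.75 to 3.32 CPM (read counts scaled to a common library total) in the libraries labelled WT and at 80.6 to 87.5 CPM in those labelled C3 KO, the reverse of what the label names. All directions are therefore given as libraries labelled C3 KO relative to libraries labelled WT. The mean of the 4 Y-linked genes measured was 0.448, 5.05, 75.8 and 3.71 CPM in WT replicates 1 to 4 and 74.8 to 88.2 CPM under the C3 KO label, and the X-inactivation RNA Xist stood at 295 to 2441 CPM under the WT label and at 1.48 to 2.65 CPM under the C3 KO label. Sex-linked expression moved with the label, but WT replicates 2, 3 and 4 held both kinds of transcript, with Y-linked levels near those of the C3 KO label in replicate 3 and far below them in replicates 2 and 4. Over all tested genes, 8.33% were called higher and 5.98% lower (edgeR, adjusted p below 0.05). Photoreceptor markers of the labelled tissue were all measured, 7 of 7, and 2 were called lower and 0 higher. Their summed level was 6421 to 7111 CPM under the WT label and 5406 to 6630 CPM under the C3 KO label. Ganglion cell markers were called higher in 6 of 7 and lower in 0, with a summed level of 1418 to 1854 CPM against 1790 to 2042 CPM. Markers of pigment epithelium and melanocytes were all measured, none was at 0, and 8 of 10 were called higher, with a summed level of 94.7 to 146 CPM under the WT label and 261 to 288 CPM under the C3 KO label. Red blood cell markers were called lower in 5 of 5 measured, with a summed level of 28.5 to 51.2 CPM against 18.1 to 23.2 CPM. The part of these shifts in the results on the subunits was not tested. In whole retina, fewer cells of a type and less RNA per cell cannot be told apart.

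Complexes I to IV pass electrons from NADH and succinate to oxygen and, except for complex II, pump protons across the inner mitochondrial membrane, and complex V uses the return flow to make ATP. Most subunits are encoded in the nucleus and imported. Complexes I, III, IV and V also need subunits encoded in mitochondrial DNA, which are not analysed here. Photoreceptors are known for a high demand for ATP, and at the age sampled they are still maturing. Promoters of subunit genes are known to share binding sites for NRF1, for GABP (an ETS factor with the subunit Gabpa), for YY1, for CREB and for the estrogen-related receptors.

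Promoter letters are shown first because the messenger RNAs of NRF1, Gabpa and YY1 differed between the labels (below) and many subunit promoters hold their letters. RefSeq windows of GRCm38.p6, 250 bases before to 50 after an annotated start, were found for 67 of the 78 genes (73 windows). The 4 printed here were chosen by hand, carry the NRF1 letters and stand for complexes I, II, IV and V, Ndufa11 being the one gene of the set called different. Each gives the 250 bases before the start, 5′ to 3′ on the gene's strand, with matched motif letters in capitals.
Ndufa11 (+ strand, chr17:56717512-56717761): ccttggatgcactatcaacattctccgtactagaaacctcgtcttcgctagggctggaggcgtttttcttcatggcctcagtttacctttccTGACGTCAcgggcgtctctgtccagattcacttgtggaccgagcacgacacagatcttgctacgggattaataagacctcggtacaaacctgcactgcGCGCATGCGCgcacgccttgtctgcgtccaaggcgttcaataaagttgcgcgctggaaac
Sdhb (+ strand, chr4:140961021-140961270): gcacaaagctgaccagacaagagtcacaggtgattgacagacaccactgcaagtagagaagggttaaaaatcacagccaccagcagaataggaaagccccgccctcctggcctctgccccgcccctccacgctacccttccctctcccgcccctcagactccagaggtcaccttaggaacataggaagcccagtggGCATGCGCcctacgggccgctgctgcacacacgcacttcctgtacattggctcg
Cox6a1 (− strand, chr5:115348959-115349208): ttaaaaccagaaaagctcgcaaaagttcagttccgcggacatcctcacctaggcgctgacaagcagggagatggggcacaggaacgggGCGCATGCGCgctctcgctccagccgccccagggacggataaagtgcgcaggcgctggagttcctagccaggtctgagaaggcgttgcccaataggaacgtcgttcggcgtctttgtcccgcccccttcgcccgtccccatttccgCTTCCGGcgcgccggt
Atp5k (− strand, chr5:108434400-108434649): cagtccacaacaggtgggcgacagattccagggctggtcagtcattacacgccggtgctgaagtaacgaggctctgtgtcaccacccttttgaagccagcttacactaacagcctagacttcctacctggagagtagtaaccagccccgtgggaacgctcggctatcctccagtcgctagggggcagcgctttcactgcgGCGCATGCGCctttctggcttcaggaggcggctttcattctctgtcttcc

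The long capital run in Ndufa11, Cox6a1 and Atp5k holds the NRF1 letters GCATGCGC on both strands, overlapping, while Sdhb holds them once. Counted from the start, they begin at base -58 in Ndufa11, -54 in Sdhb, -160 in Cox6a1 and -48 in Atp5k. Ndufa11 also has the CREB letters TGACGTCA at base -158, and Cox6a1 has the ETS letters CCGGAAG on the other strand at base -16. Over all windows searched on both strands, the NRF1 letters were in 10 of the 67 subunit genes with a window (14.9%), against 3.05% of all 27025 genes with one. The ETS letters were in 16 (23.9% against 9.93%) and the YY1 letters ATGGCGG in 11 (16.4% against 4.69%). CREB letters were in 4 (5.97% against 2.03%) and the estrogen-related receptor letters TCAAGGTCA in 2 (2.99% against 0.466%). The 27025 genes are more than the 16109 of the count table, so this background includes genes not measured in these retinas. Shares among measured genes only were not taken. A match is a description of letters, not a site shown to be bound. The 10 genes with the NRF1 letters are Ndufa6, Ndufa8, Ndufa11, Sdhb, Uqcrc1, Uqcr11, Cox6a1, Atp5g2, Atp5k and Atp5l. Their median log2 fold change was 0.02, and that of the other 57 with a window was also 0.02.

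In the comparison of the labels, the subunits of all 5 complexes differed little. All 78 passed the filter on low counts. At an adjusted p below 0.05 (edgeR's quasi-likelihood test, Benjamini-Hochberg over all 15850 tested genes), 1 subunit was called higher, Ndufa11, and 0 were called lower. The share called among all tested genes was 14.3%, with 8.33% higher and 5.98% lower, and 17.6% among genes of at least 10 CPM, a level that 72 of the subunits reach. At an unadjusted p below 0.05, 4 of the 78 passed (Ndufa11, Cox6b1, Cox6b2 and Atp5c1), against 28.6% of all tested genes. DESeq2 called the same single subunit and limma-voom called 0.

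The median log2 fold change was 0.01 over the 78 subunits and 0.00 over all tested genes, with 40 subunits above 0 and 38 below, where 50.9% of all tested genes were above 0. By complex it was 0.02 in complex I, -0.03 in complex II, -0.03 in complex III, 0.07 in complex IV and -0.02 in complex V. For 71 of the 78 the 95% interval of the log2 fold change lay within 0.3 of 0, that is within a 1.23-fold difference either way. The same held for 46.2% of all tested genes and for 66.1% of those of at least 10 CPM. The 7 subunits with a wider interval were Ndufa11, Ndufb4, Cox7c, Cox6b2, Cox7a1, Atp5l and Atp5g2. The count stayed between 69 and 70 when any library was left out, and was 64 when Y-linked expression entered the fit, where it was 27.9% of all tested genes. The median standard error (SE) of a subunit's log2 fold change was 0.06, against 0.08 for all tested genes.

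Summed over the 78 genes, the level was 10476, 10840, 10601 and 9700 CPM in WT replicates 1 to 4 and 10540, 10174, 10139 and 10763 CPM in C3 KO replicates 1 to 4. The labels overlapped, with WT replicate 4 lowest, and their means were equal at 10404 ± 493 (SD, n = 4) and 10404 ± 300.2 CPM. Complex V held the largest sum, 3956 ± 155 CPM against 3893 ± 68.8. Complex I held 3360 ± 199 against 3397 ± 129 CPM, and complex IV 1260 ± 76.9 against 1321 ± 59.6. Complex III summed to 1136 ± 45.0 against 1119 ± 38.7 CPM and complex II to 692 ± 26.5 against 674 ± 30.8.

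**Figure D1:**
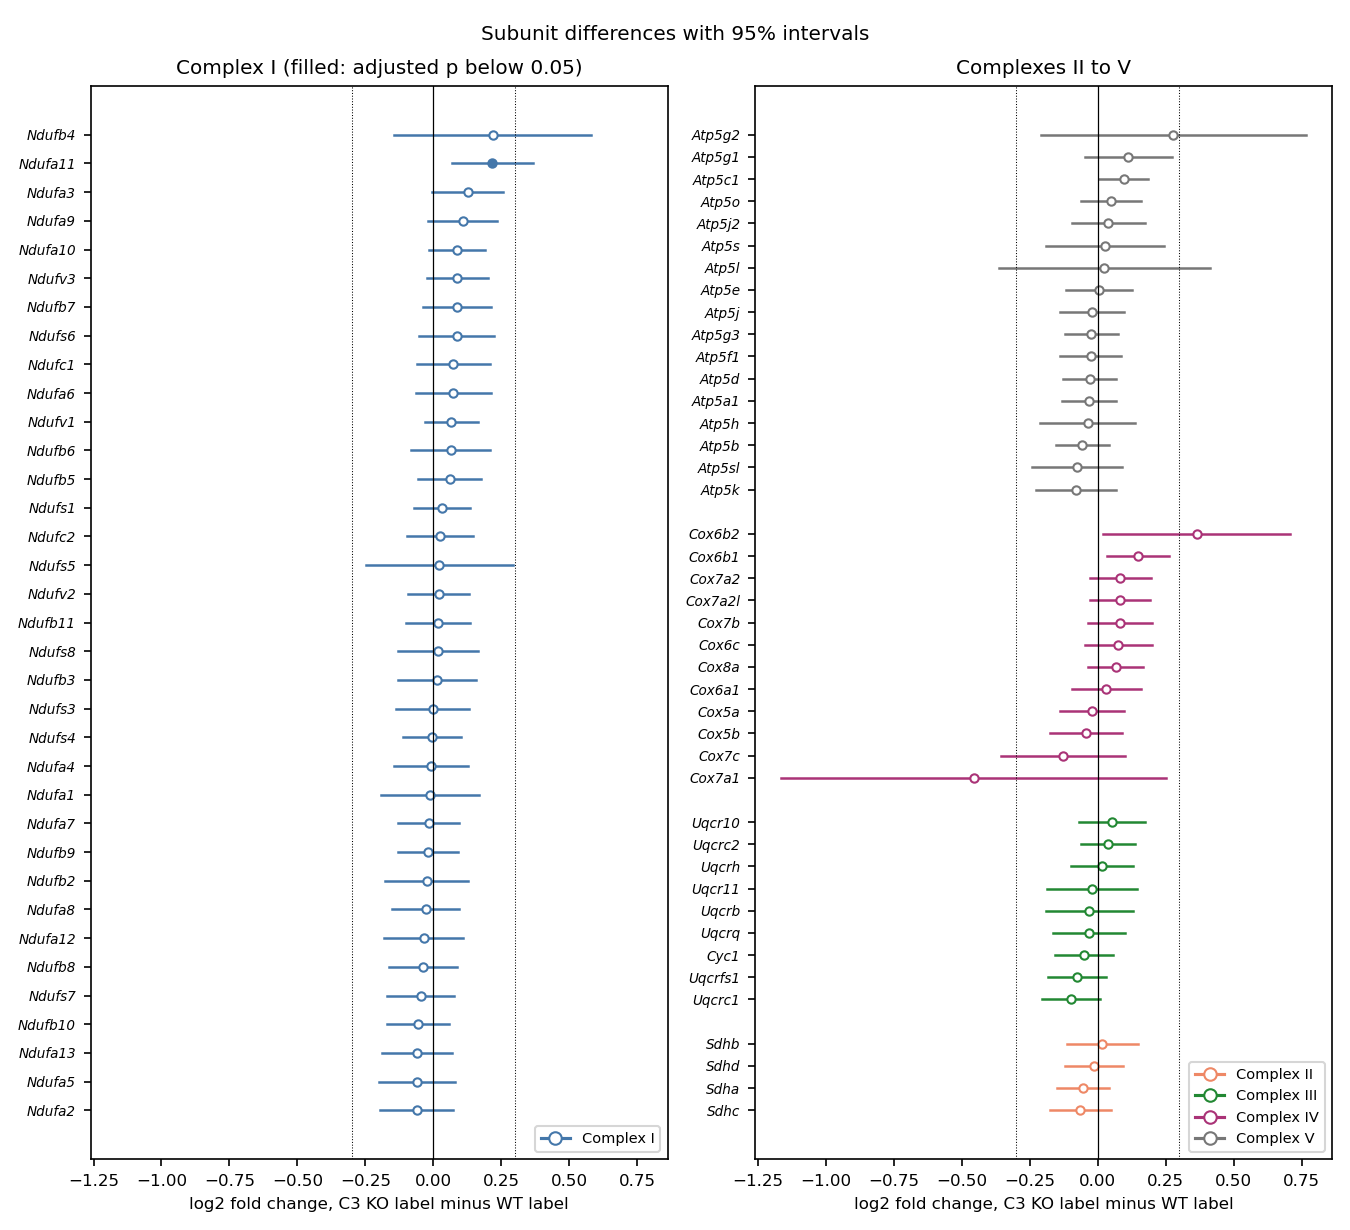
Log2 fold change of each subunit but 1 of complex I (horizontal axis, libraries labelled C3 KO minus libraries labelled WT, n = 4 each) with its 95% interval, complex I on the left and complexes II to V on the right. Dotted lines mark 0.3 on either side of 0. Ndufa11 is the only filled point (adjusted p below 0.05), and 7 of the intervals drawn reach past a dotted line.

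Complex I takes electrons from NADH. Its nuclear-encoded core of 7 subunits, which bind NADH and quinone and carry the electrons between them, had a median log2 fold change of 0.02 and 0 calls. The other 29 genes, accessory subunits around that core plus Ndufa4, also had a median of 0.02. Ndufa2, an accessory subunit of the matrix arm and among the lowest of complex I, differed by -0.06 ± 0.07 (adjusted p = 0.579). The highest value of complex I was that of Ndufb4, an accessory subunit of the membrane arm, at 0.22 ± 0.18 (adjusted p = 0.447), on only 4.02 ± 0.408 and 4.69 ± 0.812 CPM. Of the 50-base stretches of its transcripts, 37.0% also occur in other annotated transcripts, 3 of them from pseudogenes, so its reads may be split among copies.

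Ndufa11, an accessory subunit that sits in the membrane arm and is known to help hold the complex together, was the single call. Its level was 50.5, 54.3, 55.5 and 42.8 CPM in WT replicates 1 to 4 and 60.6, 55.0, 58.2 and 62.5 CPM in C3 KO replicates 1 to 4. All but 1 of the libraries labelled C3 KO were above every library labelled WT, the exception being C3 KO replicate 2, which was below WT replicate 3. The means were 50.8 ± 5.72 and 59.1 ± 3.25 CPM (SD, n = 4). The log2 fold change was 0.22 ± 0.07 (SE, 95% interval 0.07 to 0.37, edgeR adjusted p = 0.0459). The call was lost under 11 of 18 other settings, among them a fit with Y-linked expression as a term (0.13, adjusted p = 0.564). It was also lost without WT replicate 1 (adjusted p = 0.0650) or 4 (0.14, adjusted p = 0.182). The same held without C3 KO replicate 1 (adjusted p = 0.105), 3 (adjusted p = 0.0809) or 4 (adjusted p = 0.159). Ndufa11 lies on chromosome 17 near C3, with 16 tested genes between them, of which 6 were called and 2 of those were higher. The share called over all tested genes was 14.3%. The exons of Ndufa11 overlap those of Vmac on the other strand, whose log2 fold change was -0.05 ± 0.07 (adjusted p = 0.676). No source used here says if reads were counted by strand. The markers of pigment epithelium given above also moved with the label, and their part in this difference was not tested. Ndufv2, the only other subunit gene with so few tested genes between it and C3 (21, of which 4 were called), differed by 0.02 ± 0.06 (adjusted p = 0.855). The other members on that chromosome, Ndufa7, Ndufb10, Ndufv3 and Cox7a2l, lie farther away and were not called.

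Complex II oxidises succinate to fumarate and links the chain to the citric acid cycle. It has no mitochondrially encoded subunit. Its flavoprotein Sdha stood at 298, 329, 319 and 313 CPM under the WT label and 291, 308, 302 and 312 CPM under the C3 KO label, a log2 fold change of -0.05 ± 0.05 (adjusted p = 0.478). The iron-sulfur subunit Sdhb differed by 0.02 ± 0.06 (adjusted p = 0.893), and the membrane anchors Sdhc and Sdhd by -0.07 ± 0.05 (adjusted p = 0.467) and -0.01 ± 0.05 (adjusted p = 0.895). All 4 intervals lay within 0.3 of 0.

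Complex III hands electrons from quinol to cytochrome c. Its core protein Uqcrc1 had the lowest log2 fold change of the complex, with 219, 208, 223 and 210 CPM under the WT label and 185, 197, 199 and 222 CPM under the C3 KO label. All but C3 KO replicate 4 were below the WT-labelled range, and the difference was -0.10 ± 0.05 (adjusted p = 0.211). The Rieske iron-sulfur protein Uqcrfs1 followed at -0.08 ± 0.05 (adjusted p = 0.362), and cytochrome c1, encoded by Cyc1, stood at -0.05 ± 0.05 (adjusted p = 0.564). At the upper end were Uqcr10, a small accessory subunit, at 0.05 ± 0.06 (adjusted p = 0.610), and the second core protein Uqcrc2 at 0.04 ± 0.05 (adjusted p = 0.660). The hinge protein Uqcrh and the small subunits Uqcrb, Uqcrq and Uqcr11 lay between -0.03 and 0.02. All 9 intervals were within 0.3 of 0.

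Complex IV reduces oxygen. Its nuclear-encoded subunits surround a mitochondrially encoded core, and several have isoforms used in particular tissues. Of 18 isoform genes and relatives listed for complexes IV and V together, 14 were in the table, and Cox6a2, Cox7b2, Cox8b and Cox8c were not listed there. Cox6b1, the general form of a subunit facing the intermembrane space, stood at 183, 188, 192 and 167 CPM under the WT label and 210, 195, 186 and 219 CPM under the C3 KO label. C3 KO replicate 3 lay inside the WT-labelled range, and the log2 fold change of 0.15 ± 0.05 did not pass (adjusted p = 0.0739), although it did without that library (0.18, adjusted p = 0.0434). Cox6b2, the form best known from testis, was much less abundant, at 4.20, 3.67, 4.25 and 5.43 CPM against 4.94, 5.47, 5.47 and 6.71 CPM. Its log2 fold change of 0.36 ± 0.17 was the highest of all 78 and did not pass (adjusted p = 0.149).

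Cox7a1, the heart and skeletal muscle form, had the lowest log2 fold change of the 78, -0.46 ± 0.34 (adjusted p = 0.408), on a mean of 1.18 ± 0.0921 CPM against 0.848 ± 0.374. The 3 skeletal muscle markers in the table of 6 listed were also low, with a summed level of 8.51 to 10.4 CPM against 8.07 to 9.77 CPM and 0 calls. Its general counterpart Cox7a2 stood at 160 ± 13.4 against 170 ± 5.98 CPM, a log2 fold change of 0.08 ± 0.05 (adjusted p = 0.332), and Cox7a2l gave the same value (adjusted p = 0.326). The X-linked Cox7b differed by 0.08 ± 0.06 (adjusted p = 0.375), Cox8a by 0.07 ± 0.05 (adjusted p = 0.403) and Cox6a1 by 0.03 ± 0.06 (adjusted p = 0.780). Cox7c, a small accessory subunit, was at -0.13 ± 0.11 (adjusted p = 0.485). The set holds 3 X-linked genes, Ndufa1 and Ndufb11 of complex I and Cox7b. Ndufa1 differed by -0.01 and Ndufb11 by 0.02, and none of the 3 was called.

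Complex V has a catalytic F1 head and a membrane part that holds the proton channel. The F1 subunits Atp5a1, Atp5b, Atp5c1, Atp5d and Atp5e had a median log2 fold change of -0.03. Atp5b, the catalytic beta subunit and the most abundant member in CPM, stood at 1455, 1446, 1442 and 1368 CPM under the WT label and 1337, 1378, 1351 and 1425 CPM under the C3 KO label. The ranges overlapped and the difference was -0.06 ± 0.05 (adjusted p = 0.466). Atp5c1, which encodes the rotating gamma stalk, was the only subunit of the 78 whose labels did not overlap, against 17.4% of all tested genes, and it is named for that after its values were seen. It stood at 255, 256, 252 and 245 CPM against 267, 271, 263 and 276 CPM, a log2 fold change of 0.09 ± 0.04 that did not pass (adjusted p = 0.149).

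The proton-carrying c subunit is encoded by 3 genes that give the same mature protein. Atp5g3 was the most abundant of them, at 255 ± 11.4 against 251 ± 8.09 CPM, and differed by -0.02 ± 0.05 (adjusted p = 0.792). Atp5g1 stood at 36.1 ± 3.17 against 39.1 ± 3.69 CPM, a log2 fold change of 0.11 ± 0.08 (adjusted p = 0.362). Atp5g2 was near the lower end of all members, at 1.88 ± 0.124 against 2.28 ± 0.407 CPM, with 0.28 ± 0.24 (adjusted p = 0.478). Atp5k, the e subunit of the membrane part, and Atp5sl had the lowest values of complex V, -0.08 ± 0.07 (adjusted p = 0.504) and -0.08 ± 0.08 (adjusted p = 0.577).

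**Figure D2:**
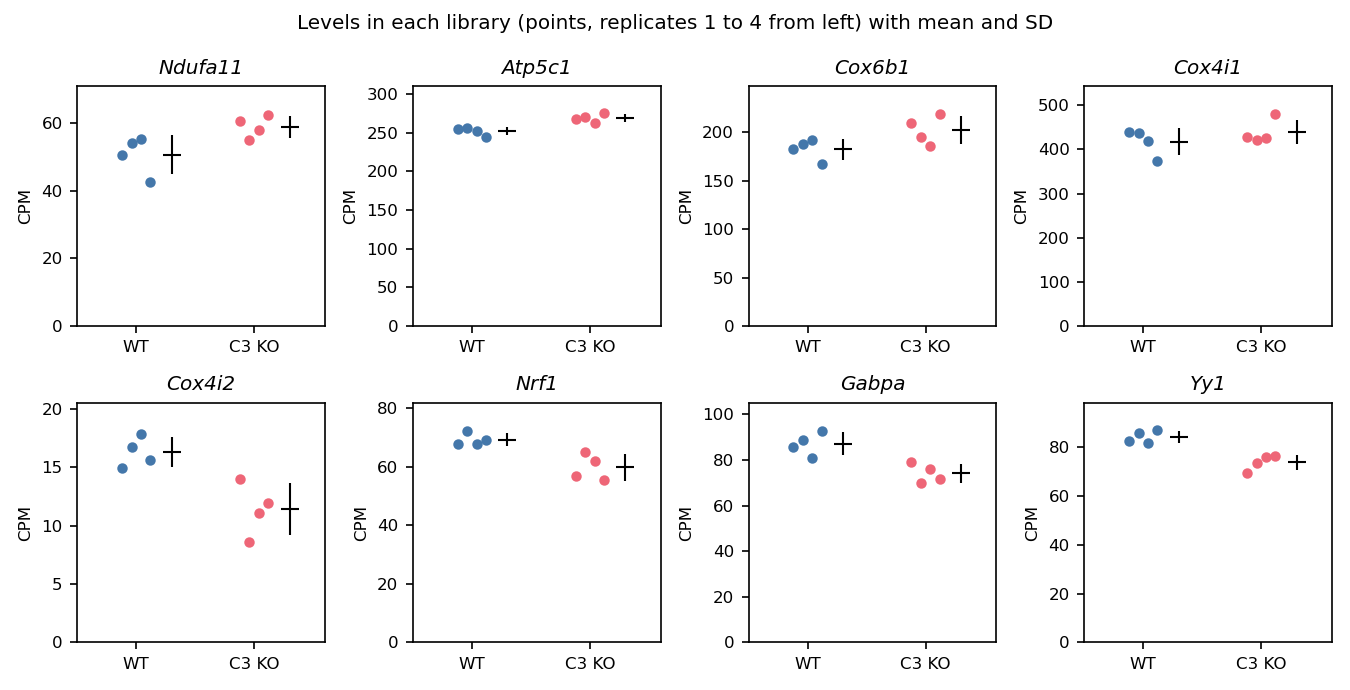
CPM in each library (points, WT label in blue, C3 KO label in red) with the mean and SD (black) for 3 subunits of the set, the 2 complex IV subunit isoforms Cox4i1 and Cox4i2, and the regulators Nrf1, Gabpa and Yy1. The C3 KO points of Atp5c1 lie above all WT points, those of Ndufa11 and Cox6b1 overlap them, and those of Cox4i2, Nrf1, Gabpa and Yy1 lie below.

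Levels of different genes were compared as RPKM, reads per kilobase of gene length and per library total. The authors computed them with gene lengths that the sources used here do not give. The order below is that of the deposited values and depends on those lengths. By these values the highest member was Ndufa4 at 496 ± 39.4 RPKM (SD, n = 8), followed by Cox8a at 420 ± 19.2, Cox6b1 at 381 ± 30.5, Atp5b at 331 ± 11.5 and Atp5a1 at 302 ± 10.1. The complex IV subunit Cox4i1, which the rule does not reach, stood higher at 631 ± 40.8 RPKM. The lowest were Cox7a1 at 3.09 ± 0.850, Atp5g2 at 3.39 ± 0.538 and Ndufb4 at 3.81 ± 0.577. Within a complex, levels spread 2.07-fold in complex II and 3.50-fold in complex III, but 130-fold in complex I, 136-fold in complex IV and 97.5-fold in complex V. The upper end of complex I is Ndufa4, now placed in complex IV. From Ndufb9, next at 224 RPKM, down to Ndufb4 the spread was 58.8-fold. At the lower ends of complexes IV and V are the isoforms Cox7a1 and Atp5g2, so these spreads include isoforms of 1 subunit. In complex II the order was Sdhd at 91.1, Sdha at 79.6, Sdhb at 50.8 and Sdhc at 44.1 RPKM. In complex III the order ran from Uqcrh at 129 and Uqcrc1 at 126 RPKM, through Cyc1 at 114, Uqcr10 at 113, Uqcrc2 at 109 and Uqcrfs1 at 94.0, to Uqcr11 at 54.2, Uqcrq at 49.8 and Uqcrb at 36.8.

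Neighbours in such an order were closer than the larger of their SDs in 25 of 73 pairs, with 14 of 35 in complex I, 0 of 3 in complex II, 4 of 8 in complex III, 2 of 11 in complex IV and 5 of 16 in complex V. The order was nearly the same under both labels: 56 of 78 genes kept their rank within the complex, and the largest shift was 4 ranks. Whether sequence shared with other genes alters these levels was not tested. Of the 12 members below 20 RPKM, 5 share over 20% of their 50-base stretches with other annotated transcripts and 5 share none. The extreme was Atp5l, the g subunit, at 8.53 RPKM with 84.8% shared, 12 pseudogenes among the sources. Over all members, 17 share more than 20% (median 36.8 RPKM) and 34 share none (median 76.3 RPKM). CPM divided by RPKM gives the length behind a value, and it was 5.61 kb for Ndufb2, 4.52 kb for Ndufb7 and 4.90 kb for Atp5g1, which stood at 5.84, 15.5 and 7.68 RPKM. Annotated protein-coding transcripts of Ndufb2 and Atp5g1 hold 4374 and 4881 different 50-base stretches, but those of Ndufb7 only 574. The length behind the Ndufb7 value is thus far longer than these transcripts. Atp5b, at a mean of 1400 CPM and 331 RPKM, has 1867 such stretches, also fewer than its implied length.

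**Figure D3:**
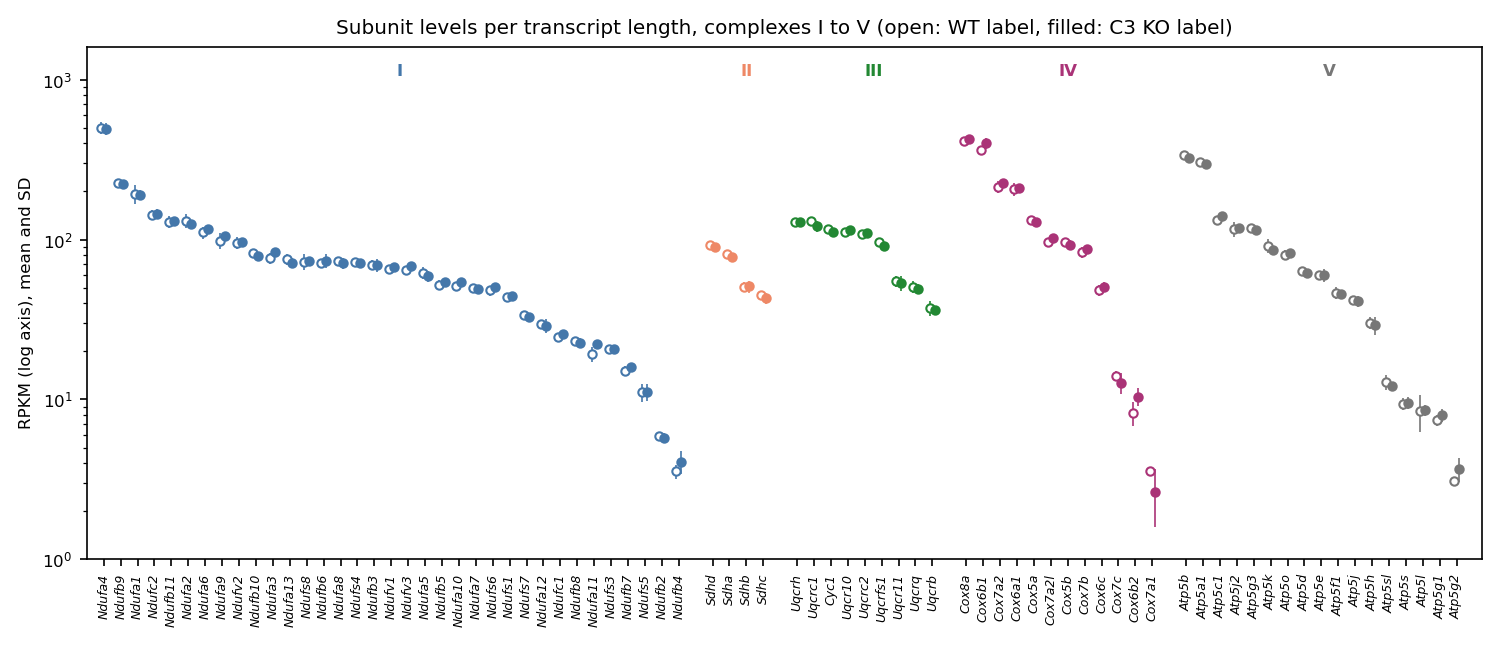
Level of each subunit but 1 of complex I (vertical log axis, RPKM, mean and SD of 4 libraries per label, open for WT and filled for C3 KO), ordered within complexes I to V. The lengths are those behind the deposited RPKM, which can differ from the lengths of annotated transcripts. Complexes II and III span 2.07-fold and 3.50-fold, and the pairs of symbols lie close together for nearly every gene.

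Library by library, the 78 genes were summarised in a score, the mean over the members of log2(CPM + 0.5) centred on the WT-labelled mean. It was 0.02, 0.07, 0.03 and -0.11 in WT replicates 1 to 4 and 0.06, -0.02, -0.04 and 0.06 in C3 KO replicates 1 to 4. The mean under the C3 KO label was 0.02, a difference smaller than the SD of 0.08 among the libraries labelled WT or of 0.05 among those labelled C3 KO. By the score over all 78 genes WT replicate 4 was the lowest of the 8 libraries. Its score was -0.12 in complex I, -0.05 in complex II, -0.11 in complex III, -0.08 in complex IV and -0.14 in complex V. In complex II replicates 1 and 2 of the C3 KO label were lower, at -0.08 and -0.10. It was the lowest of the WT-labelled libraries for 63 of the 78 genes (28 of 36, 2 of 4, 7 of 9, 10 of 12 and 16 of 17 by complex), against 27.3% of all tested genes and 27% of those of at least 10 CPM, and the lowest of all 8 libraries for 44. Without it the median log2 fold change of the 78 was -0.04 instead of 0.01.

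**Figure D4:**
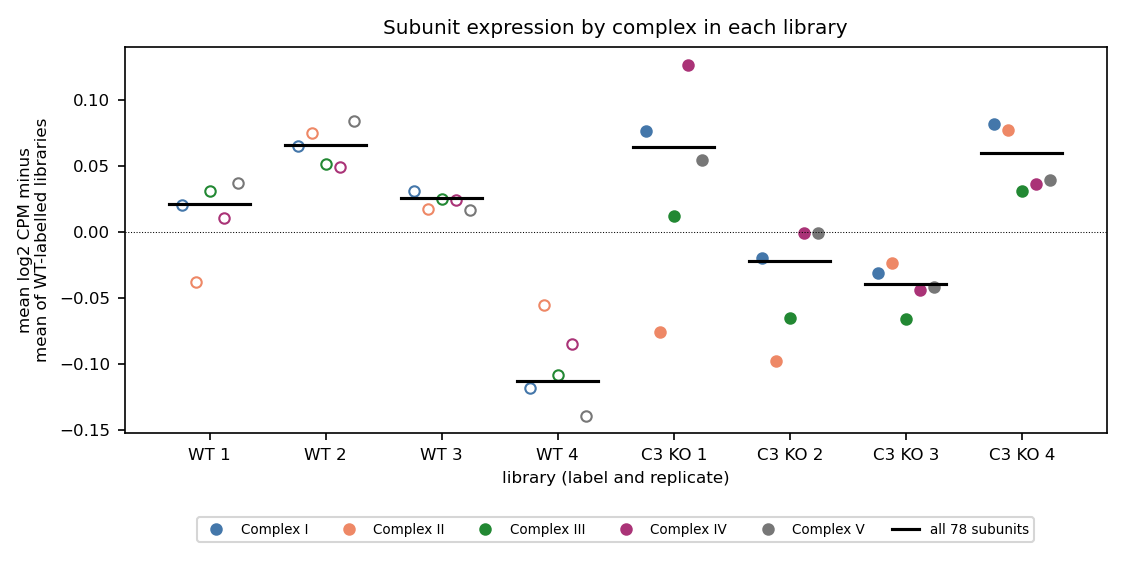
Score of each complex (coloured points) and of all 78 subunits (black bars) in each library, as mean log2 CPM minus the WT-labelled mean. WT replicate 4 has the lowest bar, at -0.11, and the other 7 lie between -0.04 and 0.07.

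The median difference of WT replicate 4 from the mean of the other libraries labelled WT was -0.16 on the log2 scale over the 78 genes. Genes of short length, as implied by CPM divided by RPKM, were lower in that library in general. Among genes of at least 10 CPM the median difference was -0.09 for those under 1 kb (519 genes) and -0.03 from 1 to 2 kb (1350). It was 0.01 from 2 to 4 kb (3634) and above 4 kb (5483). The subunits were lower within each of these classes, at -0.17 (28 genes), -0.15 (26), -0.12 (19) and -0.20 (5). Implied lengths can differ from transcript lengths. The class above 4 kb holds Ndufb7, whose annotated protein-coding transcripts have only 574 different 50-base stretches. The classes therefore cannot show how subunits compare with other genes of the same transcript length. Low values of short genes were not particular to WT replicate 4. Measured from the mean of its label, the median of the 519 genes was -0.06 there, -0.07 in C3 KO replicate 2 and 0.06 in C3 KO replicate 1. Progenitor markers, all 6 measured and none at 0, summed to 1987 CPM in WT replicate 4 and to 1619 to 1714 CPM in the others labelled WT. Red blood cell markers summed to 28.5 against 43.5 to 51.2 CPM and amacrine markers to 413 against 351 to 357. Endothelial markers summed to 378 against 320 to 331, but most of that sum was Kdr, at 311 against 238 to 252 CPM. Of the 5 endothelial markers, 4 were lowest in WT replicate 4 among the libraries labelled WT, and their median log2 difference there was -0.33. Under the C3 KO label progenitor markers summed to 1808 to 1983 CPM and red blood cell markers to 18.1 to 23.2 CPM. The scores over all 78 genes were -0.04 to 0.06 there. The part of gene length or of these cell types in the lower subunit levels of WT replicate 4 was not tested.

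**Figure D5:**
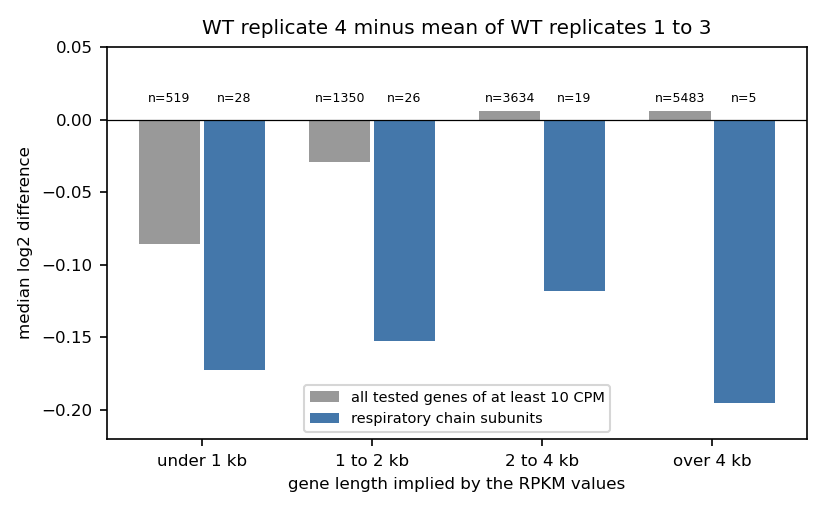
Median log2 difference of WT replicate 4 from the mean of WT replicates 1 to 3 (vertical axis) by the gene length implied by the RPKM values, for all tested genes of at least 10 CPM (grey) and for the 78 subunits (blue), with the number of genes above each bar. The blue bars lie between -0.20 and -0.12 in every class, below the grey ones.

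Other genes of the pathway were read from lists of related genes. Of 8 other respiratory chain subunits listed, 7 were measured, 0 were called higher and 2 lower, against 8.33% and 5.98% of all tested genes, with a median log2 fold change of 0.03. Cox4i2, the isoform of the regulatory complex IV subunit known from lung and from low oxygen, fell from 14.9, 16.7, 17.9 and 15.6 CPM under the WT label to 14.0, 8.59, 11.1 and 11.9 CPM under the C3 KO label. The ranges did not overlap, the log2 fold change was -0.51 ± 0.12 (SE, edgeR adjusted p = 0.00673), and the call was lost in 0 of 18 other settings. The general isoform Cox4i1 stood at 418 ± 30.6 against 439 ± 27.7 CPM, with 0.07 ± 0.06 (adjusted p = 0.429). Ndufa4l2, a relative of Ndufa4 that is known to be induced by low oxygen, fell from 42.0 ± 8.45 to 31.0 ± 3.31 CPM (log2 fold change -0.44 ± 0.13, adjusted p = 0.0361), a call lost in 9 of the 18 settings. These include the fits without replicate 1, 2 or 4 of the C3 KO label (adjusted p = 0.0798, 0.0722 and 0.0753) and without WT replicate 2 or 3 (adjusted p = 0.0778 and 0.0578). The acyl carrier Ndufab1 differed by -0.13 ± 0.08 (adjusted p = 0.314), Ndufa4 by -0.01 and cytochrome c, encoded by Cycs, by 0.03.

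Assembly factors build the complexes without staying in them. Their counts below stand beside 8.33% of all tested genes called higher and 5.98% called lower. None of 10 measured factors of complex I, 3 of complex II and 4 of complex III was called, with medians of 0.05, -0.01 and 0.06. Of 14 measured factors of complex IV, 1 was lower: Chchd8 fell from 9.65 ± 1.85 to 5.82 ± 1.36 CPM (log2 fold change -0.73 ± 0.17, adjusted p = 0.00495) and lost the call only with Y-linked expression in the fit (adjusted p = 0.403). For complex V, 1 of 4 was higher, Atpif1, the inhibitor of ATP synthase running in reverse, which rose from 132 ± 11.1 to 150 ± 10.7 CPM (0.18 ± 0.06, adjusted p = 0.0473) and lost the call in 14 of the 18 settings. Without a single library the call held only when C3 KO replicate 3 or WT replicate 1 was the one left out, and the highest adjusted p of the other fits was 0.188, without WT replicate 4.

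Pyruvate dehydrogenase and the citric acid cycle supply the chain with NADH and succinate. Their 17 genes had a median of 0.00. Against 8.33% and 5.98% of all tested genes, 0 were called lower and 1 gene was called higher. It was Pdha1, the X-linked catalytic subunit of pyruvate dehydrogenase, which rose from 171 ± 5.39 to 190 ± 7.24 CPM (0.15 ± 0.05, adjusted p = 0.0332) and lost the call in 10 of the 18 settings. Without replicate 1, 3 or 4 of the C3 KO label the adjusted p was 0.101, 0.0618 and 0.127, and without WT replicate 2, 3 or 4 it was 0.0761, 0.0942 and 0.122.

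Regulators of mitochondrial biogenesis are transcription factors, coactivators and mitochondrial DNA proteins. Of 12 measured, 0 were called higher and 3 lower, against 8.33% and 5.98% of all tested genes, with a median of -0.16. Gabpa fell from 87.0 ± 5.05 to 74.1 ± 4.33 CPM (log2 fold change -0.23 ± 0.06, adjusted p = 0.00899). Yy1 fell from 84.0 ± 2.46 to 73.7 ± 3.13 CPM (-0.19 ± 0.05, adjusted p = 0.0186), and Nrf1, the gene of the NRF1 factor, from 69.2 ± 2.14 to 59.8 ± 4.52 CPM (-0.21 ± 0.06, adjusted p = 0.0209). For each of the 3, all libraries labelled C3 KO were below all libraries labelled WT. With Y-linked expression in the fit all 3 lost their calls, at -0.18 ± 0.09, -0.18 ± 0.08 and -0.20 ± 0.09 (SE, adjusted p = 0.276, 0.243 and 0.231), so the differences were of similar size and their SEs larger. Nrf1 lost its call in 7 of the 18 settings, among them those without WT replicate 2 (adjusted p = 0.0548) and without replicate 1 or 4 of the C3 KO label (adjusted p = 0.0676 and 0.0803). Yy1 also lost its call without C3 KO replicate 1 (adjusted p = 0.0608). Exons of Gabpa overlap those of Atp5j, the coupling factor 6 subunit, on the other strand, and Atp5j differed by -0.02 ± 0.06 (adjusted p = 0.848). The coactivator Ppargc1a, at 38.6 against 34.7 CPM, and Tfam, the packaging protein of mitochondrial DNA, at 60.4 against 57.0 CPM, were not called (adjusted p = 0.158 and 0.362).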

How the data were processed

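Whole-number counts per gene and log2 RPKM values were deposited by the authors for 8 retinal libraries. Per the submitters' processing notes, STAR, HTSeq, mm9 and NCBIM37 were used. Each of the 16109 genes has at least 15 reads in at least 1 library. The deposited log2 RPKM values, made by the authors, lay within 0.0133 of log2(count + 2 reads scaled to library size), after a constant per gene and library. They were turned to a linear scale for levels and, with a pseudocount of 1 or 0.1, for an alternative test.

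Counts were tested in R 4.3.3 with edgeR 4.0.16 (quasi-likelihood, robust, TMM), 4 libraries labelled C3 KO against 4 labelled WT. The expression filter kept 15850 genes and left out 259. CPM use TMM effective library sizes, and an SE is the size of the fold change on the log2 scale over the square root of F. Alternatives were DESeq2 1.42.0, limma 3.58.1 (voom and RPKM), other scalings, no filter, a replicate block, a Y-linked term and each library left out. The procedure was tested on simulated data. Within a label, chi-square per degree of freedom was at least 3.72, so no library pair agreed within sampling noise.

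Gene symbols were matched to RefSeq and GENCODE M21 (GRCm38) for chromosomes, overlaps, shared 50-base stretches and promoters. The build differs from that of the counts, so genes were joined to counts by symbol, and gene order, overlaps and promoters are those of GRCm38, not of the build counted. The members and all lists were chosen with earlier results of these data known. Named genes are C3, called subunits, the 2 highest and 2 lowest log2 fold changes and the highest and lowest RPKM per complex, isoform sets, and up to 3 genes per related list with the smallest p. Others complete a complex's or list's description and were chosen with their values known. The values of 1 complex I subunit are not reported here, by name or in a plot, but enter all counts and medians.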

Additional observations from a re-analysis of the deposited data

Results flagged for a closer look

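In 168 groups of 4 libraries (each subunit and each score under each label), 10 had a highest or lowest library set apart from the others by more than Dixon's 95% critical value. Chance sets apart about 1 in 20 such groups. WT replicate 4 was the low library in Atp5b at 1368 CPM, Atp5j2 at 119 CPM, Ndufa1 at 63.9 CPM, Ndufa5 at 55.0 CPM, Ndufs7 at 52.9 CPM and the complex III score at -0.11. WT replicate 2 was the high one in Uqcrfs1 at 144 CPM. Under the C3 KO label, replicate 4 was high in Cox8a at 249.7 CPM, and replicate 3 was high in Atp5g1 at 44.6 CPM and low in Ndufb3 at 46.0 CPM. Over the subunits alone this was 7.69% of groups under the WT label, against 5.28% for all tested genes, and 3.85% under the C3 KO label, against 5.22%.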

How the results depend on the processing

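Under 10 other settings and 8 fits without 1 library each, 0 subunits were called lower. No median log2 fold change of a complex moved by more than the larger SD of its score within a label. That SD exceeds each median in size, so this check cannot show that a median kept its sign. Without 1 library the medians ran from -0.04 to 0.03 in complex I, -0.08 to 0.01 in complex III and -0.06 to 0.01 in complex V. Those of complexes II and IV kept their sign. The 1 subunit called higher became 0 with a Y-linked term, limma on log2(RPKM + 1), with and without a filter, or log2(RPKM + 0.1), limma-voom and no expression filter. Without 1 library it ranged from 0 to 1. Ndufa11 then stood at 0.13 (adjusted p = 0.564), 0.20 (0.102), 0.20 (0.105), 0.21 (0.1004), 0.22 (0.0515) and 0.21 (0.0520), and without 1 library between 0.14 and 0.25. The 2269 calls over all genes became 573 with the Y-linked term, 1509 and 1451 with log2(RPKM + 1) filtered and unfiltered, 1502 with log2(RPKM + 0.1), and 1305 to 2543 without 1 library. The cause of these changes was not tested.

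The replicate block gave 2400 calls and left Ndufa11 called (0.22, adjusted p = 0.0447). Deviations of same-numbered libraries correlated across genes at -0.08, 0.11, 0.02 and -0.07 for replicates 1 to 4, and not every library correlated best with its own number, so the numbers were not taken to pair the samples. The interval count was added after seeing the data. Of the subunits below 10 CPM, Cox7a1, Atp5g2, Atp5l, Ndufb4 and Cox6b2 have intervals that reach past 0.3, so a difference of that size was not excluded by these libraries. The part of depth in this was not tested.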
